A study of Mus musculus with 9 samples.

Results

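The SLC25 family, the solute carriers of the inner mitochondrial membrane, was examined in hearts of mice that lack working RORα. Members were all genes with a symbol of the form Slc25a followed by a number that a probe of the array named through its accession. The array had 63 probes for 45 of the 47 members in the annotation, and 43 members entered the test, among 27773 genes tested in all. Array sequences without a matched gene symbol count as genes here, so shares of all genes include them. Slc25a18 and Slc25a45 were well above background in RORasg/sg 1 alone and were not tested. Slc25a34 and Slc25a53 had no probe by accession.

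Total RNA of whole hearts was compared between 4 RORasg/sg and 5 WT mice, 1 single-colour Agilent array per heart. RORasg/sg mice are homozygous for staggerer, a deletion in Rora known to abolish the function of the encoded nuclear receptor in every cell that would make it. Both groups were male C57BL/6 mice aged 3 to 4 months, weaned at 3 weeks, given a normal NIH31 diet and otherwise untreated. Each heart carries its own number in the labels, which do not say whether the mice were littermates, and p-values measure the spread between these hearts. In whole-heart RNA, fewer cells of a type and less RNA per cell cannot be told apart.

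SLC25 carriers exchange metabolites across the inner mitochondrial membrane and so connect the respiratory chain and the matrix enzymes with the cytosol. In the heart, which makes most of its ATP by oxidation, the family supplies phosphate and ADP to ATP synthase and sends ATP out. It also brings in acylcarnitines and, through the malate-aspartate shuttle, reducing equivalents. RORα is a nuclear receptor that binds DNA as a monomer and takes part in circadian and metabolic gene regulation.

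Rora was checked first. Its probe with the highest mean read 0.08, -2.71, -1.01 and -1.99 in RORasg/sg hearts 1 to 4, against 2.88, 3.29, 2.89, 1.51 and 3.06 in WT hearts 1 to 5. All values here are log2 of the processed signal minus the 75th percentile of the array, and they compare hearts for one probe, not one probe with another. The log2 difference was -4.13 (adjusted p = 0.224 over all genes). The groups did not overlap for this probe or for another (difference -5.34), RORasg/sg being lower in both, and the remaining, dim probe overlapped. Where the probes lie relative to the deletion is not given in the sources used here. All 8 cardiomyocyte markers looked up (Myh6, Actc1, Tnnt2, Tnni3, Myl2, Myl3, Pln and Ryr2) were well above background in all 9 hearts.

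The hearts were not alike in array brightness. RORasg/sg hearts 1 to 4 had a 75th percentile of signal of 774, 293, 390 and 263, against 681, 644, 629, 436 and 546 in WT hearts 1 to 5. With a limit of 500, RORasg/sg 2, 3 and 4 and WT 4 are the dimmer arrays and the other 5 are the brighter ones. RORasg/sg 1 resembled the brighter WT arrays (median correlation over genes 0.961), while RORasg/sg 2, 3 and 4 had 0.861, 0.809 and 0.756 and WT 4 had 0.894. Brightness therefore moved with genotype, and results are also given for subsets of arrays and with brightness as a covariate. The arrays lay on 3 slides. Slide 1 held RORasg/sg 1 and 2 with WT 1 and 2, slide 2 held RORasg/sg 3 and 4 with WT 3 and 4, and WT 5 was alone on slide 3.

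No member of the family passed the test over all 9 hearts. At an adjusted p under 0.05 (limma with Benjamini-Hochberg adjustment over all genes), 0 of 43 members were called, where 1 of 27773 genes, or 0.0036%, was called. That gene, AI593442, was named after its values were seen (log2 difference -4.74, adjusted p = 0.018). At an unadjusted p under 0.05, 1 member was higher and 2 were lower, together 6.98% of members against 11.5% of all genes. The groups overlapped for every member tested (0 of 43), while 2.81% of all genes had groups that did not overlap. The median log2 difference, RORasg/sg minus WT, was 0.26 over members and 0.40 over all genes. It was above 0 for 28 members and below 0 for 15, a share of 65.1% above 0 against 66.6% of all genes.

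RORasg/sg 1 decided how many members were called. Without it, 18 of 43 members passed the test while 37.4% of all genes did. Of these, 14 members were higher in RORasg/sg hearts, where 28.5% of all genes were higher, and 4 were lower, where 8.92% of all genes were lower. Without RORasg/sg 1, every RORasg/sg array was a dimmer one and every WT array but WT 4 a brighter one. Genotype and brightness therefore cannot be told apart in calls made without RORasg/sg 1. Among the 5 brighter arrays, where RORasg/sg 1 stood alone against 4 WT hearts, 2 of 43 members passed and 4.69% of all genes did. Both of those, Slc25a26 and Slc25a35, were lower in the RORasg/sg heart. That comparison rests on 1 RORasg/sg heart, which the fit assumes to vary as the WT hearts do. All of these comparisons share WT hearts, so they are not independent.

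With array brightness as a covariate over all 9 hearts, 0 of 43 members passed and the members' median difference was -0.07, where all genes had 0.01. Of the 19 carriers named by rule, 15 kept their side of 0 with a difference smaller by over 1.5 times, 2 turned to the other side (Slc25a4 and Slc25a11), and 2 moved less (Slc25a14 and Slc25a51). Slc25a25 had 1.11 in this fit, Slc25a12 had 0.21, Slc25a38 had 0.37, Slc25a32 had -0.73 and Slc25a3 had -0.15. Brightness and genotype overlap in these hearts, so what they share cannot be told apart.

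**Figure D1:**
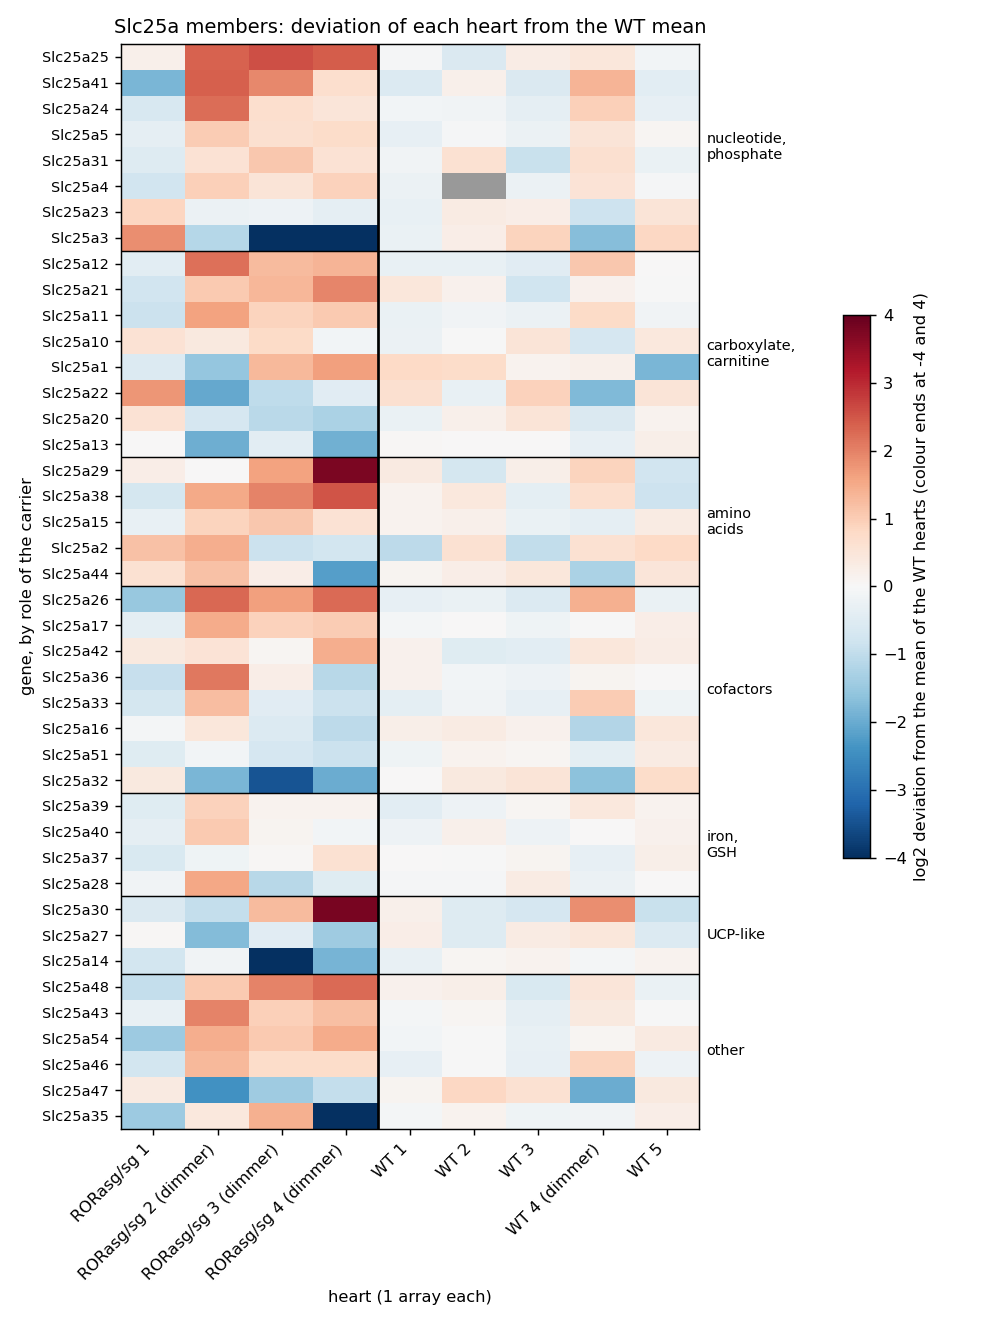
Deviation of each heart (columns, RORasg/sg left of the line, WT right of it) from the mean of the WT hearts for 42 of the 43 members tested (rows, grouped by role), in log2 units from blue for below to red for above. RORasg/sg 2, 3 and 4 carry most of the deep colours, WT 4 carries paler versions of many of them, and the grey cell is the one missing value, Slc25a4 in WT 2.

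The spread was wider among RORasg/sg hearts. The SD was larger in RORasg/sg than in WT hearts for 41 of 43 members (95.3%, against 86.1% of all genes). Its median over members was 1.09 among 4 RORasg/sg hearts and 0.48 among 5 WT hearts, where all genes had 1.07 and 0.51. Over the WT hearts without WT 4 the median SD was 0.26, where all genes had 0.30. WT 4 was the highest or lowest WT heart for 33 of 43 members, or 76.7%, and for 74.3% of all genes. The highest or lowest RORasg/sg heart was RORasg/sg 1 for 28 of 43 members, or 65.1%, below the 76.3% of all genes.

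RORasg/sg hearts 1 to 4 had a median deviation of the members from the WT mean of -0.40, 0.92, 0.52 and 0.57, against -0.09, 0.03, -0.17, 0.18 and 0.13 in WT hearts 1 to 5. For all genes it was -0.39, 0.55, 0.65 and 0.76 in RORasg/sg hearts and between -0.13 and 0.22 in WT hearts. RORasg/sg 1 was thus on the opposite side of 0 from the other RORasg/sg hearts for the family and for the array as a whole. The 8 cardiomyocyte markers had medians of 0.06, -0.51, -2.28 and -1.85 in RORasg/sg hearts, against -0.07 to 0.08 in WT hearts. All 8 were below 0 over the 9 hearts, with a median difference of -1.15 (range -2.74 to -0.10), and 4 had an unadjusted p under 0.05. These markers were low in the same 3 RORasg/sg hearts in which most members were high, and their part in the members' values was not tested. Marker lists of other cell types had median differences of -1.28 (endothelial, 5 genes), -0.35 (macrophage, 5), -0.12 (erythroid, 4), -0.07 (fibroblast, 6), 0.05 (adipocyte, 5) and 0.08 (smooth muscle and pericyte, 5), with 0 genes passing in any.

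**Figure D2:**
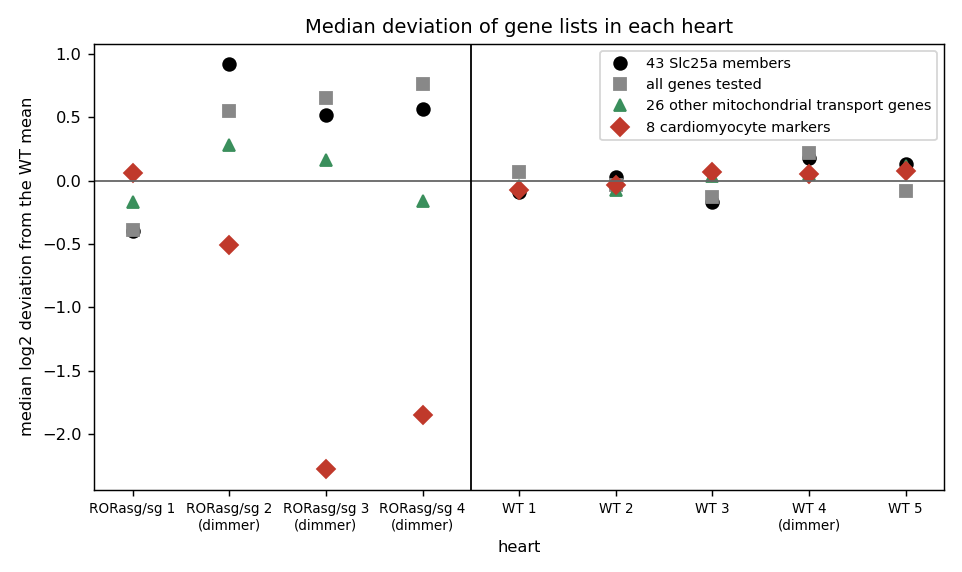
Median log2 deviation from the WT mean in each heart (horizontal axis, RORasg/sg left of the line) for the 43 members, all genes tested, 26 other mitochondrial transport genes and 8 cardiomyocyte markers. The members' medians in RORasg/sg 2, 3 and 4 are 0.92, 0.52 and 0.57, where all genes have 0.55, 0.65 and 0.76. The cardiomyocyte markers lie below 0 in the same hearts.

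Among the carriers of adenine nucleotides and phosphate, 7 of 8 had differences above 0 and 1 below, with a median of 0.47, and 0 passed the test over 9 hearts. Slc25a25, a calcium-regulated carrier that exchanges ATP-Mg for phosphate, had the smallest p of the family. It read -0.52, 1.62, 1.86 and 1.68 in RORasg/sg hearts 1 to 4, against -0.77, -1.30, -0.43, -0.29 and -0.85 in WT hearts 1 to 5. The dimmer RORasg/sg hearts stood above every WT heart, while RORasg/sg 1 fell among the WT values. Its log2 difference was 1.89 (SE 0.551, adjusted p = 0.375), and 2.45 without RORasg/sg 1 (adjusted p = 0.0034). The slides taken one by one gave 1.59 (slide 1, SE 0.888) and 2.13 (slide 2, SE 0.598). Among the 4 dimmer arrays the value was 2.01 (adjusted p = 0.682), while RORasg/sg 1 differed from the brighter WT hearts by 0.32 (adjusted p = 0.583).

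Slc25a3 carries phosphate for ATP synthesis and was the 1 carrier of this group with a difference below 0. It read 4.18, 1.18, -1.68 and -2.74 in RORasg/sg hearts, against 2.05, 2.59, 3.22, 0.63 and 3.14 in WT hearts. RORasg/sg 1 was the highest of all 9 hearts, RORasg/sg 3 and 4 were the lowest, and the dimmer WT 4 was the lowest WT heart. The log2 difference was -2.09 (SE 1.17, adjusted p = 0.42). It was -3.41 without RORasg/sg 1 (adjusted p = 0.0223) but 1.43 among the brighter arrays (adjusted p = 0.0687). Slide 1 alone gave 0.36 and slide 2 alone gave -4.14.

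Slc25a4 and Slc25a5 encode the ADP/ATP translocases ANT1, the main form in heart muscle, and ANT2. Slc25a5 read 4.83, 6.21, 5.82 and 5.92 in RORasg/sg hearts, against 4.87, 5.14, 4.96, 5.70 and 5.27 in WT hearts, a log2 difference of 0.51 (SE 0.334, adjusted p = 0.428). RORasg/sg 1 was below every WT heart and RORasg/sg 2, 3 and 4 were above every WT heart. Without RORasg/sg 1 the difference was 0.79 (adjusted p = 0.0282), and among the brighter arrays it was -0.23.

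Slc25a4 had 2 probes, and they moved apart. The probe with the highest mean read 7.42, 9.14, 8.72 and 9.11 in RORasg/sg hearts, against 7.95, 7.95, 8.75 and 8.15 in WT hearts 1, 3, 4 and 5. Its spot in WT 2 carried an outlier flag and was left out. The second probe read 6.31, 5.27, 3.84 and 3.06 in RORasg/sg hearts, against 5.17, 5.55, 5.99, 4.94 and 5.83 in WT hearts. The dimmer hearts, WT 4 included, were thus the higher ones for the first probe, while RORasg/sg 3 and 4 and WT 4 were the lowest for the second. The log2 differences were 0.40 (SE 0.366, adjusted p = 0.518) and -0.88 (SE 0.574), so no direction is given for Slc25a4.

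The remaining carriers of this group, Slc25a23, Slc25a24, Slc25a31 and Slc25a41, had differences of 0.02 to 0.79. Of these, Slc25a41 passed the test without RORasg/sg 1 (1.66, adjusted p = 0.0432) and had -1.48 among the brighter arrays.

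**Figure D3:**
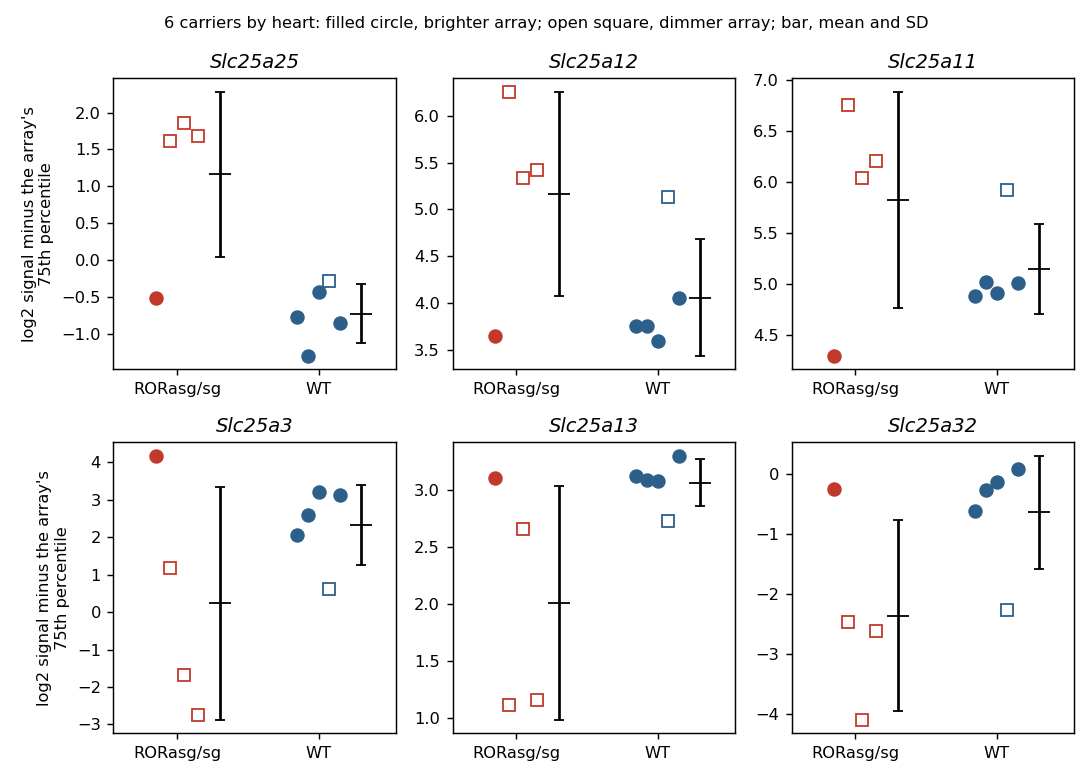
Log2 signal minus the 75th percentile of the array in each heart for 6 carriers, RORasg/sg left and WT right, with filled circles for brighter and open squares for dimmer arrays, and the mean with its SD (n = 4 RORasg/sg, n = 5 WT). RORasg/sg 1, the filled circle on the left, lies away from the open squares of its group in all panels but Slc25a13. There RORasg/sg 3 (2.66) lies nearer to RORasg/sg 1 (3.10) than to the other open squares.

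Of the carriers of carboxylates, aspartate, glutamate and acylcarnitines, 5 of 8 had differences above 0 and 3 below, with a median of 0.30, and 0 passed over 9 hearts. Slc25a12 and Slc25a13 encode the aspartate-glutamate carriers aralar and citrin, which export aspartate from the matrix in the malate-aspartate shuttle. Slc25a12 read 3.65, 6.25, 5.34 and 5.42 in RORasg/sg hearts, against 3.76, 3.76, 3.60, 5.13 and 4.06 in WT hearts. RORasg/sg 1 lay among the WT values, and the dimmer hearts were the highest of either group. Its log2 difference came to 1.10 (SE 0.512, adjusted p = 0.42), and it was 1.61 without RORasg/sg 1 (adjusted p = 0.018), -0.15 among the brighter arrays and 0.54 among the dimmer ones.

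Slc25a13 lay on the other side. It read 3.10, 1.11, 2.66 and 1.16 in RORasg/sg hearts, against 3.12, 3.09, 3.08, 2.73 and 3.30 in WT hearts. RORasg/sg 2, 3 and 4 were below every WT heart, and RORasg/sg 1 was among them. Over 9 hearts the log2 difference came to -1.06 (SE 0.483, adjusted p = 0.42), -1.42 without RORasg/sg 1 (adjusted p = 0.0261) and -0.05 among the brighter arrays. Slide 1 and slide 2 taken alone gave -1.0 each (SE 0.832 and 0.734), where Slc25a12 had 1.19 and 1.01 (SE 0.936 and 0.627). On slide 1 the Slc25a13 value came from the dimmer RORasg/sg 2 (1.11), as RORasg/sg 1 (3.10) read like WT 1 and 2 (3.12 and 3.09).

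The 150 bases before the annotated start of each of these 2 carriers are shown because the pair has one role and lay on opposite sides. The sequences are from RefSeq (GRCm38.p6), 5′ to 3′ along the gene, at chr2:71367756-71367905 on the minus strand for Slc25a12 and chr6:6217174-6217323 on the minus strand for Slc25a13. Capitals mark GGGCGG (GC box) or CCAAT on either strand.
Slc25a12: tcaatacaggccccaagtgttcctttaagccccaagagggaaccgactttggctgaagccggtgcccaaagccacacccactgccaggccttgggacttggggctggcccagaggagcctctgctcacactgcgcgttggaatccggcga
Slc25a13: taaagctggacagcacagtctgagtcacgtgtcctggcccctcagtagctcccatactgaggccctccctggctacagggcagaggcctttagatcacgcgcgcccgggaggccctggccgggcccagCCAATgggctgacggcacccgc
The Slc25a12 stretch held neither motif, and the Slc25a13 stretch held 1 CCAAT and no GC box. No probe of this array measures the promoters, and these letters are a description only.

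Slc25a11, the oxoglutarate-malate carrier of the same shuttle, read 4.30, 6.75, 6.04 and 6.20 in RORasg/sg hearts, against 4.88, 5.02, 4.91, 5.92 and 5.01 in WT hearts. RORasg/sg 1 was the lowest of the 9 hearts and the other RORasg/sg hearts were the highest, with WT 4 next. Its log2 difference came to 0.68 (SE 0.458, adjusted p = 0.432), against 1.18 without RORasg/sg 1 (adjusted p = 0.0184) and -0.65 among the brighter arrays (adjusted p = 0.0506).

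Slc25a20 exchanges acylcarnitine for carnitine and so brings fatty acids into the matrix. It read 1.04, -0.21, -0.64 and -0.83 in RORasg/sg hearts, against 0.18, 0.65, 0.96, -0.12 and 0.58 in WT hearts. RORasg/sg 1 was the highest of the 9 hearts and the other RORasg/sg hearts were the lowest. The log2 difference was -0.61 (SE 0.494, adjusted p = 0.475), -1.01 without RORasg/sg 1 (adjusted p = 0.0517) and 0.44 among the brighter arrays. Slc25a21, the oxoadipate carrier of lysine breakdown, had a difference of 0.89 (SE 0.555, adjusted p = 0.424), which was 1.44 without RORasg/sg 1 (adjusted p = 0.0204), -0.16 within slide 1 and 1.95 within slide 2. Slc25a1, the citrate carrier, Slc25a10, the dicarboxylate carrier, and Slc25a22, a glutamate carrier, had differences of 0.20, 0.40 and -0.44, with adjusted p from 0.569 to 0.874.

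Of the 5 amino acid carriers, 4 had differences above 0 and 1 below, with a median of 0.57, and 0 passed over 9 hearts. Slc25a38 imports glycine for haem synthesis. It read 0.81, 3.02, 3.49 and 4.03 in RORasg/sg hearts, against 1.64, 1.94, 1.13, 2.17 and 0.69 in WT hearts. RORasg/sg 2, 3 and 4 were above every WT heart, and RORasg/sg 1 was near the lowest of them. The log2 difference was 1.32 (SE 0.629, adjusted p = 0.42), 2.0 without RORasg/sg 1 (adjusted p = 0.0132) and -0.54 among the brighter arrays. Alas2, which uses glycine in haem synthesis in erythroid cells and stands among the erythroid markers, had a difference of -4.42 (adjusted p = 0.35) in the same hearts. Among the other erythroid markers, Epb42 and Hba-a1 had 0.38 and -0.62, and the part of these markers in the value of Slc25a38 was not tested.

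Slc25a29, a carrier of basic amino acids, read -3.69, -3.93, -2.35 and -0.21 in RORasg/sg hearts, against -3.61, -4.66, -3.72, -3.08 and -4.72 in WT hearts. RORasg/sg 4 stood far above the rest and RORasg/sg 1 and 2 lay among the WT values. The log2 difference was 1.41 (SE 0.726, adjusted p = 0.42), and its second probe had -0.21. The ornithine carriers Slc25a2 and Slc25a15 and the branched-chain amino acid carrier Slc25a44 had differences of 0.26, 0.57 and -0.04.

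Of the 9 carriers of nucleotides and cofactors tested, 5 had differences above 0 and 4 below, with a median of 0.08 (range -1.72 to 1.17), and 0 passed over 9 hearts. Slc25a32, linked to flavin and folate supply of the matrix, read -0.26, -2.48, -4.10 and -2.62 in RORasg/sg hearts, against -0.62, -0.27, -0.14, -2.28 and 0.07 in WT hearts. The 4 dimmer arrays, WT 4 among them, were the lowest of all and the 5 brighter ones lay together. RORasg/sg minus WT gave -1.72 on the log2 scale (SE 0.738, adjusted p = 0.42), -2.42 without RORasg/sg 1 (adjusted p = 0.0194), and -0.03 among the brighter and -0.79 among the dimmer arrays.

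Slc25a17, which serves the peroxisome and not the mitochondrion with coenzyme A and other cofactors, read 4.92, 6.78, 6.23 and 6.33 in RORasg/sg hearts, against 5.22, 5.34, 5.15, 5.29 and 5.56 in WT hearts. RORasg/sg 2, 3 and 4 were above every WT heart, RORasg/sg 1 was below every WT heart, and WT 4 lay with the other WT hearts. RORasg/sg minus WT gave 0.75 on the log2 scale (SE 0.357, adjusted p = 0.42), 1.13 without RORasg/sg 1 (adjusted p = 0.00714), -0.40 among the brighter and 1.15 among the dimmer arrays (adjusted p = 0.682). Its other 2 kept probes had -0.15 and -0.49.

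Slc25a26 imports S-adenosylmethionine for methylation in the matrix. Its probe of highest mean had opposite signs without RORasg/sg 1 and among the brighter arrays. It read 2.65, 6.49, 5.83 and 6.45 in RORasg/sg hearts, against 3.84, 3.92, 3.64, 5.60 and 3.92 in WT hearts. RORasg/sg 1 was below every WT heart, the other RORasg/sg hearts were above, and WT 4 came next to them. The difference was 2.07 without RORasg/sg 1 (adjusted p = 0.0134) and -1.18 for RORasg/sg 1 against the brighter WT hearts. Over all 9 hearts it was 1.17 (SE 0.734, adjusted p = 0.424). The second kept probe read -2.52, -2.37, -2.20 and -1.58 in RORasg/sg hearts, against -2.73, -2.67, -2.51, -2.10 and -2.61 in WT hearts. Its difference was 0.36 (SE 0.388), and RORasg/sg 1 lay among its WT values. The opposite signs were thus read from 1 probe.

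Slc25a51, the NAD carrier, differed by -0.52 (SE 0.342, adjusted p = 0.427). It was below 0 without RORasg/sg 1 (-0.54, adjusted p = 0.158), among the brighter arrays (-0.57) and among the dimmer ones (-0.15). The medians of all genes in these subsets were 0.68, -0.35 and 0.5. The pyrimidine nucleotide carriers Slc25a33 and Slc25a36, the coenzyme A carrier Slc25a42 and Slc25a16 had differences of -0.30 to 0.62.

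The 4 carriers of iron and glutathione had differences near 0. The mitoferrins Slc25a37 and Slc25a28, which import iron, had -0.03 and -0.05, and the glutathione carriers Slc25a39 and Slc25a40 had 0.18 and 0.17, with adjusted p from 0.761 to 0.967. None of the 4 passed the test without RORasg/sg 1 or among the brighter arrays, where their differences were -0.02 to 0.40 and -0.68 to -0.21.

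The uncoupling protein-like carriers Slc25a14, Slc25a27 and Slc25a30 had differences of -2.71, -0.87 and 0.89, and 0 of 3 passed over 9 hearts. Slc25a14 read 0.91, 1.51, -6.43 and -0.21 in RORasg/sg hearts, against 1.36, 1.74, 1.79, 1.56 and 1.80 in WT hearts. The value of RORasg/sg 3 was not well above background and set most of the difference (SE 1.28, adjusted p = 0.42). Slc25a27 read -1.43, -3.20, -1.92 and -2.89 in RORasg/sg hearts, against -1.21, -1.99, -1.16, -1.02 and -2.04 in WT hearts. RORasg/sg 2 and 4 were below every WT heart. Its difference was -0.87 (SE 0.487, adjusted p = 0.42), and -1.18 without RORasg/sg 1 (adjusted p = 0.0476).

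Of the 6 tested members with another role or no settled substrate, 4 had differences above 0 and 2 below. Slc25a43 read -3.75, -1.46, -2.49 and -2.25 in RORasg/sg hearts, against -3.52, -3.38, -3.82, -3.07 and -3.46 in WT hearts. Slc25a48, linked to choline transport, read -5.90, -3.92, -2.99 and -2.68 in RORasg/sg hearts, against -4.80, -4.72, -5.56, -4.47 and -5.24 in WT hearts. In both, RORasg/sg 2, 3 and 4 were above every WT heart and RORasg/sg 1 was below most or all of them. Their log2 differences were 0.96 (adjusted p = 0.42) and 1.08 (adjusted p = 0.421), and 1.38 and 1.76 without RORasg/sg 1 (adjusted p = 0.0176 and 0.0168). Slc25a46, which acts at the outer membrane in mitochondrial shape, and Slc25a54 had 0.50 and 0.64 and passed without RORasg/sg 1 at 0.92 and 1.33. The other kept probes of Slc25a46 went the other way over 9 hearts, at -1.09 (SE 0.715) and -0.94 (SE 0.748).

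Slc25a47 read -2.40, -5.16, -4.18 and -3.69 in RORasg/sg hearts, against -2.63, -1.91, -2.15, -4.72 and -2.36 in WT hearts. All 4 dimmer arrays were below the 5 brighter ones. Over 9 hearts the log2 difference came to -1.11 (SE 0.681, adjusted p = 0.423), -1.59 without RORasg/sg 1 (adjusted p = 0.0782), -0.14 among the brighter and 0.37 among the dimmer arrays. Slc25a35 read -0.98, 0.90, 1.89 and -4.44 in RORasg/sg hearts, against 0.31 to 0.73 in WT hearts, with RORasg/sg hearts on both sides of the WT range. Its difference was -1.14 over 9 hearts (adjusted p = 0.504) and -1.50 for RORasg/sg 1 against the brighter WT hearts (adjusted p = 0.0262).

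**Figure D4:**
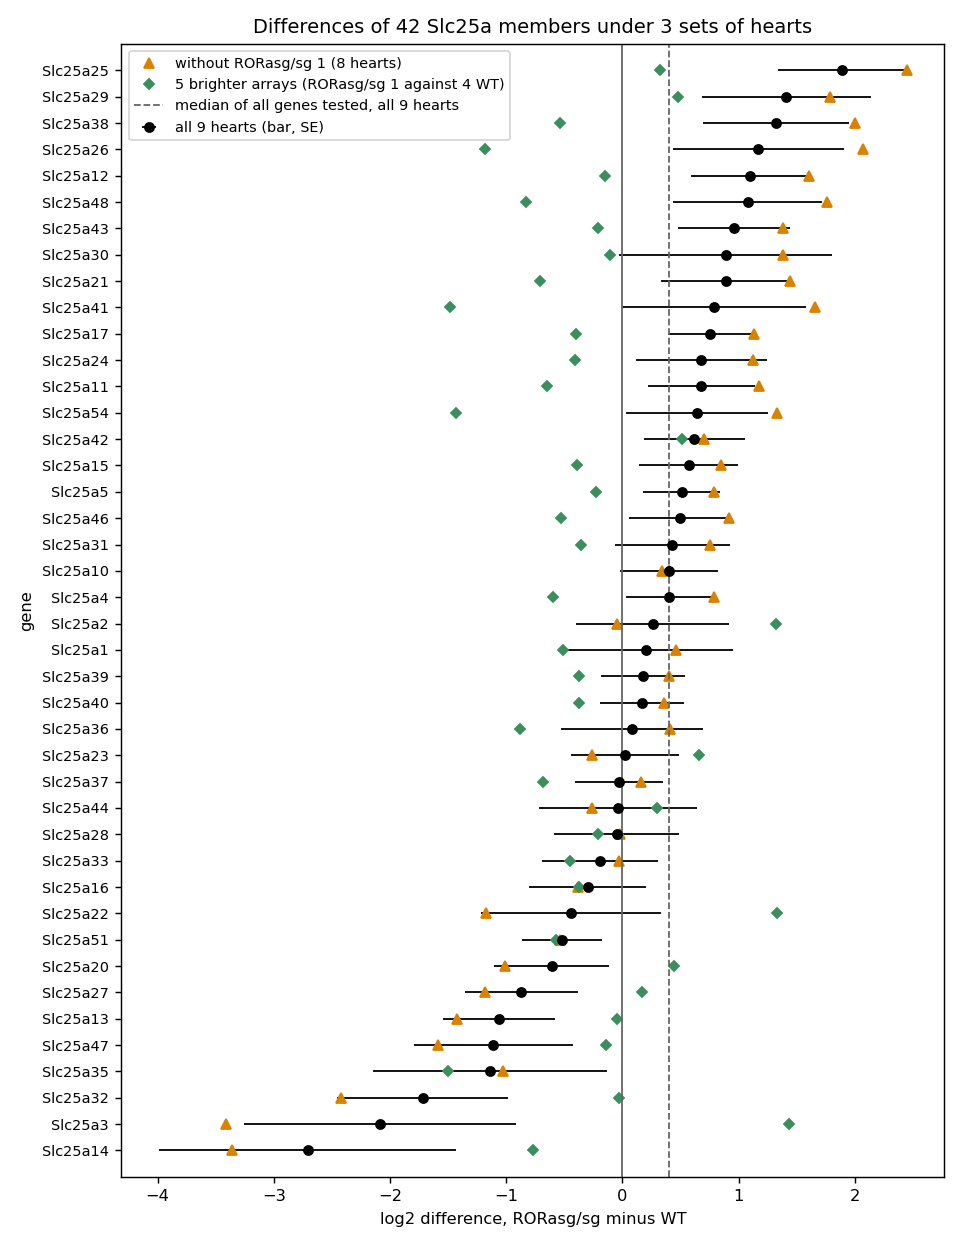
Log2 difference, RORasg/sg minus WT, of 42 of the 43 members (rows) over all 9 hearts (black, bar for SE), without RORasg/sg 1 (orange) and among the 5 brighter arrays (green), with the median of all genes as a dashed line. The orange points reach from -3.41 to 2.45 and the green ones from -1.50 to 1.43, and many members lie on opposite sides of 0 under these subsets. All genes moved likewise. Without RORasg/sg 1, 62.8% of members and 68.1% of all genes were above 0. Among the brighter arrays, 25.6% of members and 28.9% of all genes were.

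Different probes of one member often disagreed. Of 12 members with several kept probes, 6 had probes whose differences had opposite signs (50%), against 45.5% of 6550 genes with several kept probes. These were Slc25a4, Slc25a17, Slc25a25, Slc25a29, Slc25a40 and Slc25a46. The median gap between the highest and lowest difference of a gene's probes was 1.08 over these 12 members and 1.0 over those genes. For Slc25a25 the other 2 probes had -0.28 (SE 0.425) and 0.80 (SE 0.482), beside 1.89 for the probe with the highest mean. Slc25a33 had one probe at -0.19 and a dimmer one at -1.91 (SE 0.619).

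**Figure D5:**
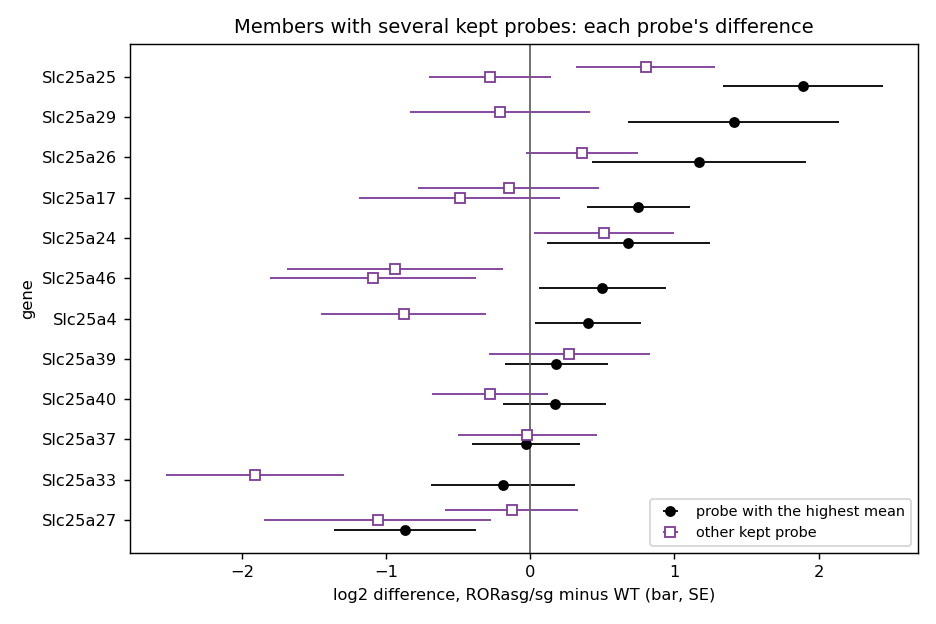
Log2 difference, RORasg/sg minus WT, with its SE, for each kept probe of the 12 members with several, the probe with the highest mean as a filled circle and the others as open squares. Circles and squares lie on opposite sides of 0 for 6 members, and Slc25a25 has the largest gap, 2.17.

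Other mitochondrial transport systems were looked up from a list of genes. Of 26 listed, 26 were tested and 0 passed over 9 hearts, with 15 differences above 0, 11 below and a median of 0.11. The pyruvate carrier subunits Mpc1 and Mpc2 had 0.94 and 0.67, and the porins Vdac1, Vdac2 and Vdac3 had -0.51, 0.42 and -1.09. Cpt1b and Cpt2, which act before and after Slc25a20 in acylcarnitine import, had -0.32 (adjusted p = 0.459) and 0.06 (adjusted p = 0.917). Those with an unadjusted p under 0.05 were Ucp2 (-2.65), Mtch2 (-1.81) and Abcb10 (-2.09), all lower in RORasg/sg hearts, a share of 11.5% that equals the 11.5% of all genes. Without RORasg/sg 1, 11 of 26 passed (6 higher and 5 lower), where 37.4% of all genes did. Among the brighter arrays 2 passed, Ucp2 and Cpt2 (-0.78, adjusted p = 0.0411). Ucp2 was at -4.26 without RORasg/sg 1 (adjusted p = 0.00263) and at 2.11 among the brighter arrays (adjusted p = 0.0273), so it was called with opposite signs. Mpc1 was at 1.58 and -0.72 under these subsets, Mpc2 at 1.20 and -0.70, and Mtch2 at -2.53 and 0.23.

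RORα binds the half-site AGGTCA, usually after an A/T-rich stretch, so this motif was looked up in windows from 250 bases before to 50 bases after the annotated starts. RefSeq windows (GRCm38.p6) matched 32 of the 43 tested members, and a gene counted where any of its windows held the motif on either strand. AGGTCA was found in 2 members (6.25%), Slc25a39 and Slc25a47, against 18.1% of 27025 genes. TAGGTCA, which contains it, was found in 0 of 32 members against 2.97% of genes, and TCAAGGTCA, the element of estrogen-related receptors, which also contains it, in 0 against 0.466%. GCATGCGC, a core of the element of NRF1, a regulator of mitochondrial genes, was in 2 members (6.25%, against 3.05%). GC boxes (GGGCGG) were in 27 members (84.4%, against 38.2%) and CCAAT in 17 (53.1%, against 41.1%). The members were all detected in these hearts, while the 27025 genes were taken whether detected or not. These shares therefore compare unlike sets and do not show a trait of the family.

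The matches to AGGTCA are shown with 20 bases on each side, as the only members' windows that held the receptor's half-site. They are from RefSeq (GRCm38.p6), 5′ to 3′ along the gene, at chr11:102407664-102407709 on the minus strand for Slc25a39 and chr12:108850956-108851001 on the plus strand for Slc25a47. Both matches lie on the strand opposite to the gene, so the capitals read TGACCT.
Slc25a39: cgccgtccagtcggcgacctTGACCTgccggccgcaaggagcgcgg
Slc25a47: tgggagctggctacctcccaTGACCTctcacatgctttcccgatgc
They begin at -172 and -153 relative to the start. The log2 differences of these members were 0.18 (adjusted p = 0.761) and -1.11 (adjusted p = 0.423), so neither passed the test. A match describes letters in a window and says nothing about binding, and the windows without one say nothing about the receptor. In the same annotation 3 members lay on the chromosome of Rora and 0 within 20 Mb of it.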

How the data were processed

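Per the labels' protocols, heart total RNA was amplified by a whole-transcriptome method and labelled with Cy3. Per the file headers, arrays were read with Feature Extraction 12.0.0.7, which is version 12 in the submitters' processing notes. Values as deposited are processed intensity per spot, linear, with background subtracted and no scaling across arrays. The series value table held the same intensity (largest relative difference 0 over 45018 features).

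Of 43379 spots that were not controls, 758 readings with an outlier flag over the 9 arrays were left out, and 0 were saturated. Log2 intensity minus each array's 75th percentile was used. A probe was kept (36402 of 41174) when 4 or more of the 9 arrays had it well above background, and each gene was read from its kept probe of highest mean. Unversioned accessions were matched to RefSeq names of GRCm38.p6 for 28223 probes, and the array's own grid used another build. Those probes gave 19096 symbols. Probes without a match kept the array's own name for the sequence, and each such name was counted as a gene.

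RORasg/sg and WT were compared in limma 3.58.1 (R 4.3.3, lmFit, eBayes with trend), with Benjamini-Hochberg adjustment over 27773 genes. The fit was also run on simulated arrays, all drawn from the WT means and WT spread. These lack the wider spread of RORasg/sg hearts and the differences in brightness, so they do not show how the test behaves with either. A gene with an adjusted p under 0.05 was called. Named members were the 8 with the smallest unadjusted p in each direction plus Slc25a3, Slc25a4, Slc25a5, Slc25a11, Slc25a12 and Slc25a20; further members that a subset called or that role groups hold were named after their values were seen. Members, roles, lists and the brightness limit of 500 were chosen with earlier results of these data known. Members used were well above background on all 9 arrays for 36, on 8 for 5 and on 7 for 2, with at least 3 RORasg/sg and 4 WT hearts each. The number of arrays and the spread between them limit the precision. Values of 1 member and 1 marker are not reported here singly, though counts and medians hold them. Alternatives covered scaling, background correction, filter, probe choice, slide, replicate number, brightness and each heart left out.

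Correlations of same-numbered RORasg/sg and WT hearts' deviations were 0.05, -0.01, -0.33 and 0.39. They cannot show whether equal numbers mark matched mice, because hearts with unlike numbers were not compared and array brightness differed between hearts.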

Additional observations from a re-analysis of the deposited data

Results flagged for a closer look

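Dixon's test at the 95% level was run on each group for the named members, 38 groups in all, of which chance marks about 1 in 20. It marked 3. Slc25a25 read -0.52 in RORasg/sg 1, the lowest of the RORasg/sg hearts, with the next at 1.62. Slc25a47 read -4.72 in WT 4, the lowest WT heart, with the next at -2.63. Slc25a11 read 5.92 in WT 4, the highest WT heart, with the next at 5.02. WT 4 was the highest or lowest WT heart for 74.3% of all genes. RORasg/sg 1 was the highest or lowest RORasg/sg heart for 76.3% of all genes. Both had an array brightness unlike most of their group, and whether that set the marked values was not tested. With brightness as a covariate the differences between groups were 1.11 for Slc25a25 (1.89 without it), -0.16 for Slc25a47 (-1.11) and -0.15 for Slc25a11 (0.68). These compare groups and do not bear on single hearts, and brightness and genotype overlap in these hearts.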

How the results depend on the processing

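The count of 0 members called held under all alternatives other than leaving out RORasg/sg 1 or the dimmer arrays. Genes called over the whole array numbered 2 with quantile normalization, 3 with no scaling, 9 with the replicate number as a block (all lower; 0 members) and 0 with normexp, the filter on all 9 arrays, the mean of probes, slide as a block, each slide alone and the 4 dimmer arrays alone, a subset chosen after seeing the data. Without the 4 dimmer arrays they numbered 1303, with 2 members and 2 other transport genes. With each heart left out in turn they ranged over 0 to 10399 (members 0 to 18, other transport genes 0 to 11), the upper ends without RORasg/sg 1. The members' median of 0.26 was -0.31 with no scaling, where all genes had -0.17, -0.37 without the dimmer arrays, where all genes had -0.35, -0.07 with brightness as a covariate, where all genes had 0.01, and 0.09 with quantile normalization, where all genes had 0.30. Its distance from the median of all genes, -0.15, was 0.27 within slide 1 and ranged over -0.27 to 0.07 with each heart left out, the upper end without RORasg/sg 4.

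Of 435 values of the named members under the alternatives, 413 kept their sign. Slc25a4 turned to -0.17 with quantile normalization, -0.13 with no scaling, -0.88 with the filter on all 9 arrays, which takes its other probe, and -0.22 with brightness as a covariate, where Slc25a11 had -0.15 and 15 of the 19 named members kept their sign but shrank by over 1.5 times, among them Slc25a17 at 0.21, Slc25a43 at 0.30, Slc25a29 at 0.70, Slc25a13 at -0.38 and Slc25a20 at -0.01. Slc25a5 was -0.06 with no scaling. Within slide 1, Slc25a48 and Slc25a21 were -0.16 each and Slc25a3 was 0.36. Without the dimmer arrays, values were -0.15 for Slc25a12, -0.40 for Slc25a17, -0.54 for Slc25a38, -0.21 for Slc25a43, -0.83 for Slc25a48, -0.71 for Slc25a21, 0.17 for Slc25a27, 1.43 for Slc25a3, 0.44 for Slc25a20, -0.60 for Slc25a4, -0.23 for Slc25a5 and -0.65 for Slc25a11. Slc25a47 was 0.37 among the dimmer arrays. The filter on all 9 arrays left no value for Slc25a14 and Slc25a47. Apart from the Slc25a4 probe switch, the cause was not tested. Within a slide each group had 2 hearts, and the brighter and dimmer subsets each left 1 heart in a group, assumed to vary like the others.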
